A study of Homo sapiens with 6 samples.

Results

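The 10 genes that low oxygen is known to induce, described here, lie outside glycolysis and were followed in RNA-seq libraries of HaCaT cells with and without knockdown of IQGAP2. They were VEGFA, ADM, CA12, BNIP3, BNIP3L, EGLN1, EGLN3, NDRG1, P4HA1 and ANKRD37, picked by gene symbol, and all 10 were present among the 12829 genes of the table. HaCaT is an immortal, aneuploid human keratinocyte line. The 3 control libraries are labelled normal control with a wild-type genotype, and the 3 knockdown libraries are labelled shIQGAP2, a short hairpin RNA against the scaffold protein IQGAP2. All cells were grown in DMEM with fetal bovine serum, and no label names a low-oxygen treatment in either group. The labels used here do not say whether control cells carried a hairpin of their own, how many hairpins were used, or whether the knockdown cells came from 1 clone.

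The cell's response to low oxygen runs through the hypoxia-inducible factors (HIFs), transcription factors made of an oxygen-regulated alpha subunit (HIF1A or EPAS1) and the stable partner ARNT. When oxygen is present, the prolyl hydroxylases EGLN1, EGLN2 and EGLN3 mark the alpha subunit, which the ubiquitin ligase containing VHL then sends to the proteasome. When oxygen is scarce the alpha subunit persists and raises genes for blood vessel growth, removal of mitochondria, pH control, collagen processing and glycolysis, and also raises EGLN1 and EGLN3, which closes a feedback loop. Several of these genes answer to other signals too, among them growth factor and amino acid stress pathways.

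Expression was given as FPKM, fragments per kilobase of gene scaled by library depth, so levels may be set side by side between genes. The whole reads behind these values summed to between 12901037 and 15360759 per library. IQGAP2, the targeted gene, had 24, 22 and 21 reads in control replicates 1, 2 and 3 and 2, 4 and 2 in the knockdown replicates (log2 change -0.22, limma adjusted p = 0.0217; exact two-sided permutation p = 0.1, the smallest that 3 libraries against 3 allow). The limma call for IQGAP2 was lost without any control replicate or without knockdown replicate 3 (adjusted p 0.0519 to 0.0556). The size of this change depends on the 1 added to about 0.2 FPKM: with a pseudocount of 0.5 it was -0.41 and with 0.1 it was -1.26, and the ratio of mean FPKM was 0.12. Keratinocyte markers were abundant, at a summed 4450 to 4564 FPKM in the controls against 4755 to 5157 FPKM after knockdown. Of these markers 7 of 8 were called higher in the knockdown (median log2 change 0.62), against 29.5% of all genes tested. Of the fibroblast markers 4 of 8 were in the table, summing to 8.90 to 10.4 FPKM in control and 4.33 to 5.98 FPKM in knockdown libraries (median log2 change -0.66 over the 3 tested). The melanocyte, endothelial and leukocyte lists had 1 of 6, 3 of 7 and 1 of 7 genes in the table, each list summing to under 1 FPKM in every library. The most abundant keratinocyte marker was KRT14 (2575 ± 62.0 FPKM in controls, 2313 ± 190 FPKM in the knockdown). It was the marker of the 8 that was not called (log2 change -0.16, limma adjusted p = 0.117). KRT14 was called higher with quantile normalization (0.63), and lower with limma voom on the whole reads (-0.17) and without knockdown replicate 2 (-0.09). The most abundant fibroblast marker was TWIST2 (6.18 ± 0.649 and 3.56 ± 0.698 FPKM). Of the other fibroblast markers tested, LUM was called lower (-1.34) and COL1A1 did not pass (0.13, adjusted p = 0.237). Of the endothelial markers, all under the filter on low values, VWF ran from 0.12 to 0.178 FPKM in the controls and from 0.392 to 0.484 FPKM after knockdown. CDH5 ran from 0.117 to 0.281 FPKM in the controls and from 0 to 0.0759 FPKM after knockdown. Whether these differences have a part in the values of the 10 genes was not tested. Knockdown replicate 2 correlated less with the other knockdown libraries (0.9931 and 0.9936 across genes) than those did with each other (0.9968). Log2 changes below are knockdown minus control of log2(FPKM + 1), which understates changes of low genes, values after ± are the SD of 3 libraries (n = 3), and gene positions are those of GENCODE v29 on GRCh38, the build of the deposited values. In bulk RNA, fewer cells making a transcript and less transcript per cell cannot be told apart.

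The 10 genes did not move as one. In the knockdown 7 of them rose, ADM was called lower in the values as deposited, and EGLN3 and ANKRD37 did not pass the test. The ADM call was lost when libraries were rescaled to a common sum of FPKM or the trend over transcript length was removed. In the fit to the values as deposited 29.5% of 11214 genes tested were higher and 27.8% lower, so a change by itself was common in this comparison. The control and knockdown libraries did not overlap for 8 of the 10, against 65.1% of all genes tested; they were apart upwards for 7 (33.7% of all genes) and downwards for 1 (31.4%). The median change of the 10 was 0.46, against 0.01 for all genes tested. The 10 genes were chosen with earlier results of these data known, so this difference is description only. All 10 genes passed the filter on low values (a mean of at least 0.5 FPKM).

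**Figure D1:**
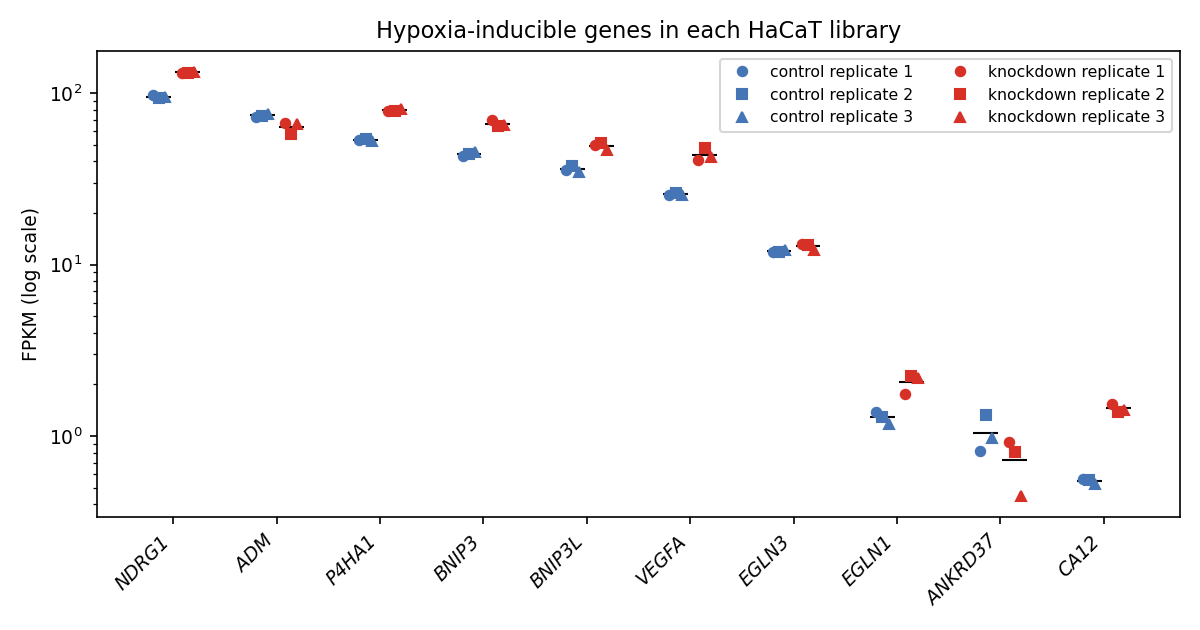
FPKM of each gene (log scale) in the 3 control (blue) and 3 knockdown (red) libraries, ordered by control level, with black bars for group means. NDRG1, the highest, lies near 95.4 FPKM in control libraries, and EGLN1, ANKRD37 and CA12 lie near 1 FPKM, where the spread between libraries is widest for ANKRD37.

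The prolyl hydroxylases EGLN1 and EGLN3, which are HIF targets as well as the enzymes that limit HIF, differed in level: EGLN3 was far more abundant. EGLN1 rose, and EGLN3 did not pass the test. EGLN1 (ENSG00000135766, chromosome 1, 231363751 to 231425044, minus strand, also called PHD2, the main HIF prolyl hydroxylase in most cells) was at 1.39, 1.29 and 1.18 FPKM in control replicates 1 to 3 and at 1.76, 2.23 and 2.19 FPKM in knockdown replicates 1 to 3. All knockdown values were above all control values, and knockdown replicate 1 was the lowest of its group. The change was 0.42 (SE 0.0856, adjusted p = 0.0021) on 89 to 186 reads per library. EGLN3 (ENSG00000129521, chromosome 14, 33924231 to 34462774, minus strand, PHD3) was at 11.8, 11.9 and 12.1 FPKM in the controls against 13.2, 13.0 and 12.1 FPKM after knockdown. The groups overlapped through knockdown replicate 3, and the test was not passed (log2 change 0.08, 95% interval -0.03 to 0.20, adjusted p = 0.197). The EGLN3 difference passed once every library was rescaled to a common sum of FPKM (0.24, adjusted p = 0.0066), a scaling that lifted the median of all genes from 0.01 to 0.14. The ratio of EGLN3 to EGLN1 was 8.53, 9.24 and 10.3 in control libraries and 7.49, 5.82 and 5.52 in knockdown libraries. The ratios did not overlap between groups (exact two-sided permutation p = 0.1, the smallest possible, and 0.12 adjusted over 6 such gene pairs). The window of 250 bases before the RefSeq start of EGLN3 held no HIF core motif as defined below, and that of EGLN1 held 1. Those RefSeq starts lie inside the gene bounds given above, by 511700 bases for EGLN3 and 2757 bases for EGLN1.

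VEGFA and ADM, the secreted products in the set, went in opposite directions in the values as deposited. VEGFA (ENSG00000112715, chromosome 6, 43770184 to 43786487, plus strand), the growth factor that draws in blood vessels, was at 25.4, 26.2 and 25.5 FPKM in the controls against 40.7, 48.0 and 42.6 FPKM after knockdown. The rise was the largest of the 10 on the log2(FPKM + 1) scale (log2 change 0.74, SE 0.0605, adjusted p = 7.82e-06), a ratio of means of 1.70, and 2.33% of all genes tested had a larger rise. Knockdown replicate 2 was the highest, and without it the change was 0.68. VEGFA also has the longest annotated exons of the set, in the longest decile of genes, where the median change was 0.18. With the trend over transcript length removed from each library, the VEGFA change was 0.56 (adjusted p = 4e-06).

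ADM (ENSG00000148926, chromosome 11, 10304680 to 10307397, plus strand), which encodes the vasodilator peptide adrenomedullin, was at 73.1, 74.1 and 75.2 FPKM in the controls against 67.2, 58.0 and 66.3 FPKM after knockdown. It was the second most abundant of the 10 in control cells. Its fall was modest and the groups did not overlap, with knockdown replicate 2 lowest (log2 change -0.22, SE 0.0585, adjusted p = 0.00978). The call was lost with a common sum (-0.05, adjusted p = 0.375) and with the length trend removed (-0.10, adjusted p = 0.0873). Genes of the length decile of ADM had a median change of -0.14. Without knockdown replicate 2 the change was -0.15 (adjusted p = 0.0024). The bases before the RefSeq start of ADM are printed below, with the 5-base HIF core, ACGTG or GCGTG on either strand, in capitals.

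ADM (chr11:10304823-10305072, plus strand): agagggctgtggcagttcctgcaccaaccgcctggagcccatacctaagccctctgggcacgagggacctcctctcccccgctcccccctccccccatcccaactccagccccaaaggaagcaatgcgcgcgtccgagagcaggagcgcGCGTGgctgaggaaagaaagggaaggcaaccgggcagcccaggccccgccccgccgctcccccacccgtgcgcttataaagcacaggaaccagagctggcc

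This window, taken from RefSeq (GRCh38.p14) like those below, covers the 250 bases before the start that RefSeq gives, written 5′ to 3′ on the strand of the gene. RefSeq starts differ from the outermost GENCODE v29 gene starts that bound the positions printed here, so that of the 7 windows read 5 lie wholly and 2 (BNIP3 and P4HA1) partly inside the GENCODE gene. The RefSeq start of ADM is 393 bases inside it. A core motif occurred in 58% of the 9111 windows of genes tested that were in the table, so that a match describes the sequence and no more. Those of VEGFA, BNIP3L and NDRG1 were not.

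VEGFC and VEGFB, other ligands of the family, were not higher with VEGFA. VEGFC, a ligand for lymphatic vessels, fell from 13.4 ± 0.723 to 8.49 ± 1.10 FPKM (log2 change -0.60, adjusted p = 1.80e-04). VEGFB was at 25.1 ± 0.397 FPKM in the controls against 21.2 ± 3.20 FPKM after knockdown (-0.24, adjusted p = 0.0384). That VEGFB call was lost without any of the control libraries or knockdown replicates 1 or 2 (adjusted p 0.0627 to 0.102). It was lost too with a common sum (-0.08, adjusted p = 0.374), with the length trend removed (-0.08, adjusted p = 0.347) and with quantile normalization (-0.20, adjusted p = 0.0842). VEGFA stood at 1.80 to 2.00 times the VEGFC level in control libraries and at 4.40 to 6.37 times in knockdown libraries. The ratio of VEGFA to VEGFB moved from 1.00 to 1.06 in control libraries to 1.75 to 2.67 in knockdown libraries. Both ratios separated the groups (exact two-sided permutation p = 0.1, adjusted over the 6 pairs 0.12). The co-receptor NRP1 rose from 2.26 ± 0.0668 to 3.14 ± 0.139 FPKM, and ADM2, a peptide related to adrenomedullin, from 4.22 ± 0.241 to 5.71 ± 0.406 FPKM. The signalling receptors FLT1, KDR and FLT4 and the adrenomedullin receptor partners RAMP1, RAMP2 and RAMP3 were not in the table. In this list of ligands, receptors and processing enzymes 2 of 7 genes tested were higher and 2 lower (57.1% called, against 57.4% of all genes tested).

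BNIP3 and BNIP3L (also called NIX), receptors on the outer mitochondrial membrane that tether mitochondria to the autophagy machinery, both rose. BNIP3 (ENSG00000176171, chromosome 10, 131966455 to 131982013, minus strand) was at 43.3, 44.0 and 45.1 FPKM in the controls against 69.4, 64.6 and 65.2 FPKM after knockdown. On the log2 scale it rose by 0.58 (SE 0.0459, adjusted p = 6.61e-06), and 4.69% of genes tested had a larger rise. BNIP3L (ENSG00000104765) was at 35.8, 37.6 and 34.7 FPKM in the controls against 49.9, 51.2 and 46.8 FPKM after knockdown (log2 change 0.44, SE 0.0511, adjusted p = 6.64e-05). For both genes every knockdown library lay above every control library. The BNIP3 to BNIP3L ratio was 1.21, 1.17 and 1.30 in control and 1.39, 1.26 and 1.39 in knockdown libraries, and these ranges overlapped (exact two-sided permutation p = 0.2, adjusted over the 6 pairs 0.2). GENCODE v29 names 39 pseudogenes of BNIP3, so how reads were divided among these copies is uncertain. The BNIP3 window, whose RefSeq start lies 90 bases inside the GENCODE gene, is shown because it held 6 core matches, the most of the 7 windows read, close together.

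BNIP3 (chr10:131981924-131982173, minus strand): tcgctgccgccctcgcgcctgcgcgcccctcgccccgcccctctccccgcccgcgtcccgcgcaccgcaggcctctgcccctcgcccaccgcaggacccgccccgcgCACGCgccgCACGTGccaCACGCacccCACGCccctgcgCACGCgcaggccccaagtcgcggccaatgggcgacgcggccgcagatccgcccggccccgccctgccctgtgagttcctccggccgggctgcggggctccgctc

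The run CACGTG in it is a palindrome and counts as 1 match on each strand. Windows with 2 or more matches made up 29.2% of those of genes tested.

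Of other parts of the mitochondrial autophagy machinery, 7 of 15 genes were higher and 2 lower (median 0.10). That is 60% called, against 57.4% of all genes tested, of which 29.5% were higher and 27.8% lower. TAX1BP1, a cargo receptor, rose from 11.9 ± 0.199 to 18.8 ± 0.758 FPKM. The ATG8-family proteins, to which BNIP3 and BNIP3L bind, went different ways. MAP1LC3B rose from 18.2 ± 0.579 to 26.3 ± 0.141 FPKM and GABARAPL1 from 24.9 ± 0.375 to 34.5 ± 1.59 FPKM. GABARAPL2 was called lower (-0.26, adjusted p = 0.00166), which was lost with a common sum (-0.10, adjusted p = 0.147), and MAP1LC3A (0.01, adjusted p = 0.902) and MAP1LC3B2 (-0.01, adjusted p = 0.964) did not pass. FKBP8, another mitophagy receptor, fell from 115 ± 1.46 to 88.5 ± 7.85 FPKM.

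CA12 (ENSG00000074410, chromosome 15, 63321378 to 63382161, minus strand), a carbonic anhydrase of the cell surface that helps set extracellular pH, had the largest ratio of means of the 10. It was at 0.562, 0.556 and 0.528 FPKM in the controls against 1.54, 1.39 and 1.42 FPKM after knockdown, a ratio of 2.64. These values rest on 52 to 60 reads per control library and 138 to 151 per knockdown library. The groups lay far apart, with a log2 change of 0.66 (SE 0.0719, adjusted p = 4.48e-05). Because 1 was added to low values, this understates the difference: with a pseudocount of 0.1 the change was 1.25, and limma voom on the whole reads gave 1.37. CA9, the carbonic anhydrase best known as a hypoxia marker, was also low and rose from 0.842 ± 0.155 to 1.48 ± 0.147 FPKM (0.43, adjusted p = 0.00209). The cytosolic CA2, far more abundant, fell from 273 ± 4.43 to 179 ± 10.8 FPKM (-0.61, adjusted p = 1.17e-05), and CA11 fell from 4.96 ± 1.03 to 2.74 ± 0.599 FPKM. The mitochondrial CA5B rose from 0.752 ± 0.0627 to 1.57 ± 0.171 FPKM and the bicarbonate transporter SLC4A7 from 3.62 ± 0.00349 to 5.99 ± 0.994 FPKM. Over the list of carbonic anhydrases and proton exporters, 4 of 10 genes tested were higher and 4 lower (80% called). Of all genes tested 57.4% were called, 29.5% higher and 27.8% lower.

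P4HA1 (ENSG00000122884, chromosome 10, 73007217 to 73096974, minus strand), the catalytic subunit of the collagen prolyl 4-hydroxylase, rose and varied little between libraries. It was at 53.6, 53.9 and 52.4 FPKM in the controls against 78.4, 78.8 and 80.9 FPKM after knockdown. The libraries of a group differed by less than 2 FPKM in control and less than 3 FPKM in knockdown, and the log2 change was 0.57 (SE 0.0413, adjusted p = 3.86e-06). P4HA1 is a short gene for this set: genes of its length had a median change of -0.10, and with the length trend removed its change was 0.66. Its partner subunit P4HB rose from 35.1 ± 0.358 to 43.2 ± 0.336 FPKM and the alternative catalytic subunit P4HA2 from 10.4 ± 0.274 to 12.8 ± 0.545 FPKM, with log2 changes of 0.29 and 0.27. The ratio of P4HA1 to P4HA2 was 5.02 to 5.18 in control and 5.87 to 6.42 in knockdown libraries (exact two-sided permutation p = 0.1, adjusted over the 6 pairs 0.12). Genes for other steps of collagen modification were lower or not past the test. The prolyl 3-hydroxylase P3H1 fell from 5.25 ± 0.127 to 3.64 ± 0.417 FPKM, its relative P3H4 from 4.77 ± 0.477 to 3.31 ± 0.338 FPKM, and PPIB, a prolyl isomerase of the same complex, from 17.8 ± 2.39 to 14.1 ± 0.738 FPKM. The PPIB call was lost with a common sum (-0.16, adjusted p = 0.117) and with the length trend removed (-0.15, adjusted p = 0.122). The list had 2 of 11 genes higher and 5 lower (63.6% called, against 57.4% of all genes tested, 29.5% higher and 27.8% lower). With a common sum it had 4 higher and 3 lower, where 43.4% of all genes were higher and 16.4% lower. The P4HA1 window held a single match, and its RefSeq start lies 108 bases inside the GENCODE gene.

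P4HA1 (chr10:73096867-73097116, minus strand): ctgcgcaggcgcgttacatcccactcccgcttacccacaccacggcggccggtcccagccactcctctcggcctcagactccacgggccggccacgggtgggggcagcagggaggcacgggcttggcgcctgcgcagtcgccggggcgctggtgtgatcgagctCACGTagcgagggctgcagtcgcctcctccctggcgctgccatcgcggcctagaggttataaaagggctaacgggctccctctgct

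NDRG1 (ENSG00000104419), a stress-responsive protein of differentiating epithelia, was the most abundant of the 10. It was at 97.4, 94.3 and 94.5 FPKM in the controls against 132, 132 and 133 FPKM after knockdown. The knockdown libraries agreed to within 1% of their mean (coefficient of variation 0.578%), and the change was 0.47 (SE 0.0412, adjusted p = 1.17e-05). NDRG1 is long, and with the length trend removed its change was 0.34 (adjusted p = 7.73e-05). Its relatives did not rise with it. NDRG2 fell from 1.78 ± 0.278 to 1.15 ± 0.149 FPKM (-0.37, adjusted p = 0.00687). NDRG3 was at 25.5 ± 1.38 FPKM in the controls against 22.8 ± 0.668 FPKM after knockdown (-0.16, adjusted p = 0.0277), a call that was lost without control replicates 1 or 2 or knockdown replicates 1 or 3 (adjusted p 0.0608 to 0.124). It was lost too once the length trend was removed (-0.08, adjusted p = 0.25) or values were quantile normalized (-0.12, adjusted p = 0.0928), and the change was 0.00 after rescaling to a common sum. NDRG4 was at 0.475 ± 0.0655 and 0.601 ± 0.0645 FPKM and did not pass (adjusted p = 0.217). NDRG1 stood at 3.63 to 3.92 times the NDRG3 level in control and 5.64 to 5.98 times in knockdown libraries (exact two-sided permutation p = 0.1, adjusted over the 6 pairs 0.12).

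ANKRD37 (ENSG00000186352, chromosome 4, 185396021 to 185400628, plus strand), a small ankyrin repeat protein known as a HIF1 target, did not pass the test and varied most between libraries. It was at 0.815, 1.32 and 0.978 FPKM in the controls against 0.922, 0.803 and 0.446 FPKM after knockdown, from 28, 42 and 31 reads and 27, 28 and 14 reads. The groups overlapped, with knockdown replicate 3 lowest of all, and the interval of the change ran from -0.52 to 0.03 (log2 change -0.24, SE 0.124, adjusted p = 0.116). Without knockdown replicate 3 the change was -0.12 (adjusted p = 0.389) and without control replicate 2 it was -0.15 (adjusted p = 0.362). In GENCODE v29, 35.2% of its exon bases are also exon of UFSP2 on the opposite strand. Whether counting used strand is not given in the sources used here, so reads of the pair may be mixed. UFSP2, named after its values were seen, rose from 8.14 ± 0.420 to 10.3 ± 0.124 FPKM (adjusted p = 0.00108). The ANKRD37 window, before a RefSeq start 820 bases inside the GENCODE gene, is shown because it held 3 core matches, more than any other of the 7 but BNIP3, in a gene that did not pass the test.

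ANKRD37 (chr4:185396591-185396840, plus strand): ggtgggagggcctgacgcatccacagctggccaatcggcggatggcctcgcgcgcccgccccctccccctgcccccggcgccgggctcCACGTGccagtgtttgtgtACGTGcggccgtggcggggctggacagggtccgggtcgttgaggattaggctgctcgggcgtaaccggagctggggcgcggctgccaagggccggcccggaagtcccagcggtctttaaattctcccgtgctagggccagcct

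Core matches were present before the RefSeq starts of genes that rose (BNIP3 6, P4HA1 1, CA12 1, EGLN1 1). ADM, called lower in the values as deposited, had 1. Of the genes that did not pass, ANKRD37 had 3 and EGLN3 had 0. Whether the motif has a part in any change was not tested.

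**Figure D2:**
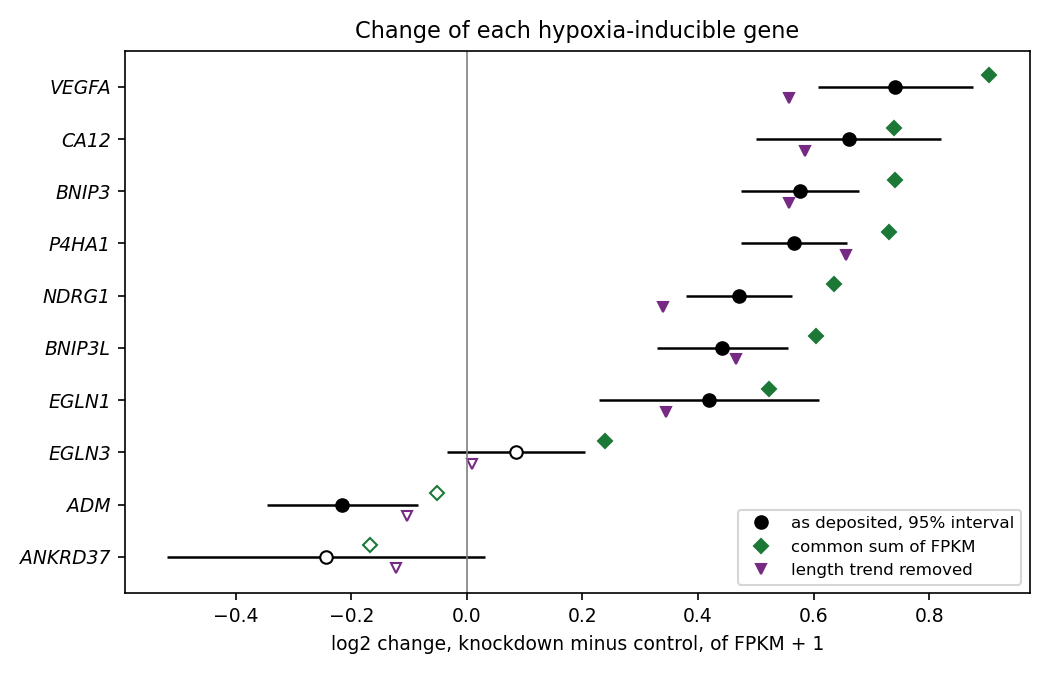
Log2 change of each gene, knockdown minus control of FPKM + 1, with its 95% interval for values as deposited (black), and without interval for libraries rescaled to a common sum (green) and with the length trend removed (purple). Filled symbols passed the test, and the 7 genes at the top did so under all 3 treatments of the values, while ADM did so only for values as deposited and EGLN3 only under the common sum.

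The transcripts of the HIF system itself were mixed. HIF1A, the oxygen-regulated subunit, was at 40.4, 39.0 and 38.3 FPKM in the controls against 37.9, 40.4 and 38.0 FPKM after knockdown. The groups overlapped (log2 change -0.02, adjusted p = 0.791), and the sign turned with a common sum (0.15, adjusted p = 0.0428), with quantile normalization (0.03) and without control replicate 1 (0.01). EPAS1, the second alpha subunit, was lower, from 9.15 ± 0.404 to 7.53 ± 0.620 FPKM (-0.25, adjusted p = 0.0102), which did not pass with a common sum (-0.10, adjusted p = 0.286). ARNT was at 6.24 ± 0.377 and 6.73 ± 0.316 FPKM (0.10, adjusted p = 0.234) and VHL at 5.22 ± 0.229 and 5.68 ± 0.812 FPKM (0.10, adjusted p = 0.373), in control and knockdown. ARNT passed as higher with a common sum (0.24, adjusted p = 0.0202). Protein levels and oxygen-dependent turnover of the subunits are not seen in RNA.

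Among regulators of the factors, HIF1AN, the asparagine hydroxylase that blocks HIF from binding its coactivators, rose from 6.37 ± 0.153 to 7.77 ± 0.484 FPKM (0.25, adjusted p = 0.0065). That difference was 0.07 with the length trend removed (adjusted p = 0.292). EGLN2 had a mean under 0.5 FPKM and was not tested, at 0.309, 0.301 and 0.368 FPKM in the controls against 0.304, 0.531 and 0.415 FPKM after knockdown. The coactivator CREBBP rose from 3.48 ± 0.193 to 6.33 ± 0.730 FPKM (0.71, adjusted p = 6.74e-05). CITED2, a HIF target that competes with HIF1A for CREBBP and EP300, rose from 23.1 ± 0.867 to 40.8 ± 4.02 FPKM (0.79, adjusted p = 1.18e-05). HSP90AA1, the chaperone that stabilises HIF1A among many clients, fell from 258 ± 3.81 to 139 ± 1.49 FPKM (-0.89, adjusted p = 2.53e-07). RBX1, the RING subunit of the VHL ligase and of other cullin ligases, fell from 18.6 ± 0.717 to 10.8 ± 1.45 FPKM (-0.73, adjusted p = 6.20e-05). Of 18 genes tested in this list 5 were higher and 6 lower (median -0.05, 61.1% called, near the 57.4% of all genes tested). With a common sum 8 were higher and 4 lower, where 43.4% of all genes were higher and 16.4% lower.

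**Figure D3:**
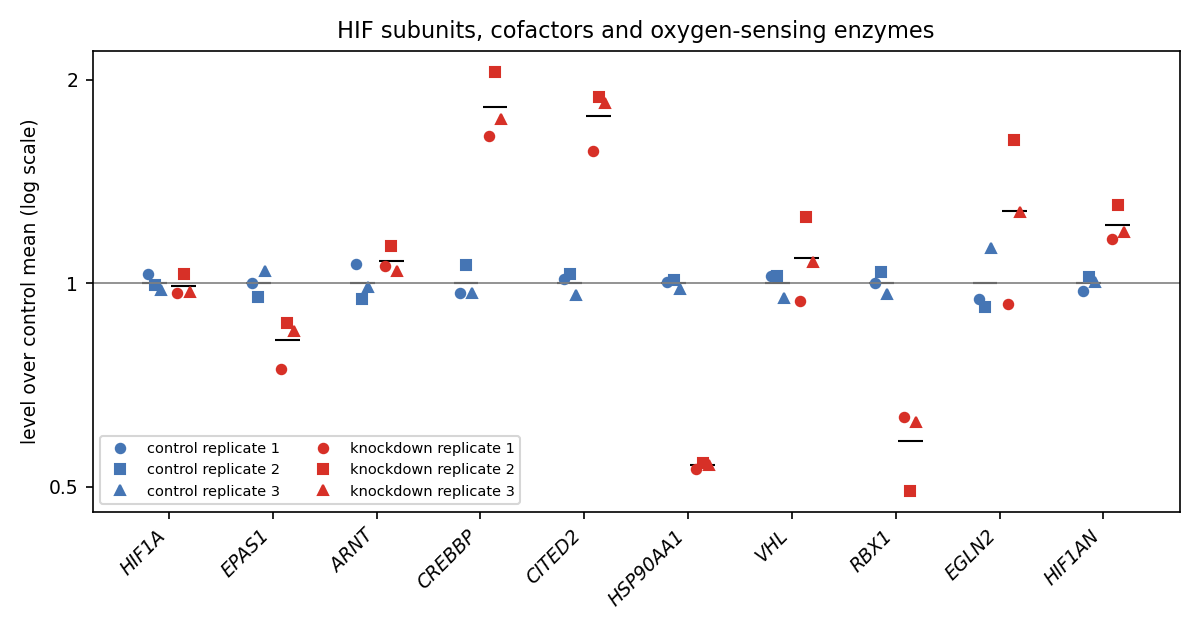
Level of each gene in every library divided by its control mean (log scale), for HIF subunits, cofactors and oxygen-sensing enzymes, with black bars for group means. HIF1A knockdown libraries overlap the controls, with knockdown replicates 1 and 3 just below all of them. CREBBP and CITED2 lie above the controls in all 3 knockdown libraries, and HSP90AA1 and RBX1 lie below them.

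Beyond the 10, other genes known to be induced by hypoxia outside glycolysis went both ways. Of 40 listed, 38 were tested, and 18 were higher and 11 lower (median 0.12), together 76.3%, against 57.4% of all genes tested. By direction, 29.5% of all genes tested were higher and 27.8% lower. STC2, a secreted glycoprotein that amino acid stress also raises, rose from 38.9 ± 0.238 to 73.9 ± 0.381 FPKM (0.91, adjusted p = 1.74e-07), and PPP1R3C, a glycogen-targeting subunit of protein phosphatase, from 1.25 ± 0.307 to 2.90 ± 0.0601 FPKM. The transferrin receptor TFRC fell from 81.0 ± 3.74 to 40.7 ± 5.82 FPKM (-0.98, adjusted p = 1.14e-05) and the repressor BHLHE41 from 7.17 ± 0.540 to 3.26 ± 0.295 FPKM. With a common sum 22 were higher and 7 lower, where 43.4% of all genes were higher and 16.4% lower. The glycolytic HIF targets had 10 of 21 genes higher and 5 lower (median 0.08, 71.4% called against 57.4%), and 14 higher and 3 lower with a common sum, which raised the share of higher genes over the whole table as well. The largest rise among them was that of the hexokinase HK2, from 12.5 ± 0.228 to 23.3 ± 1.33 FPKM (0.85, adjusted p = 1.60e-06). The glucose transporter SLC2A1 rose from 23.8 ± 0.656 to 32.3 ± 1.38 FPKM, and PDK1, which keeps pyruvate out of the mitochondria, from 5.42 ± 0.0523 to 7.61 ± 0.445 FPKM. GAPDH was at 1107, 1175 and 1144 FPKM in the controls against 1560, 1330 and 1559 FPKM after knockdown (0.37, adjusted p = 0.00209), and, since it has many near-identical pseudogenes, how its reads were assigned is uncertain.

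**Figure D4:**
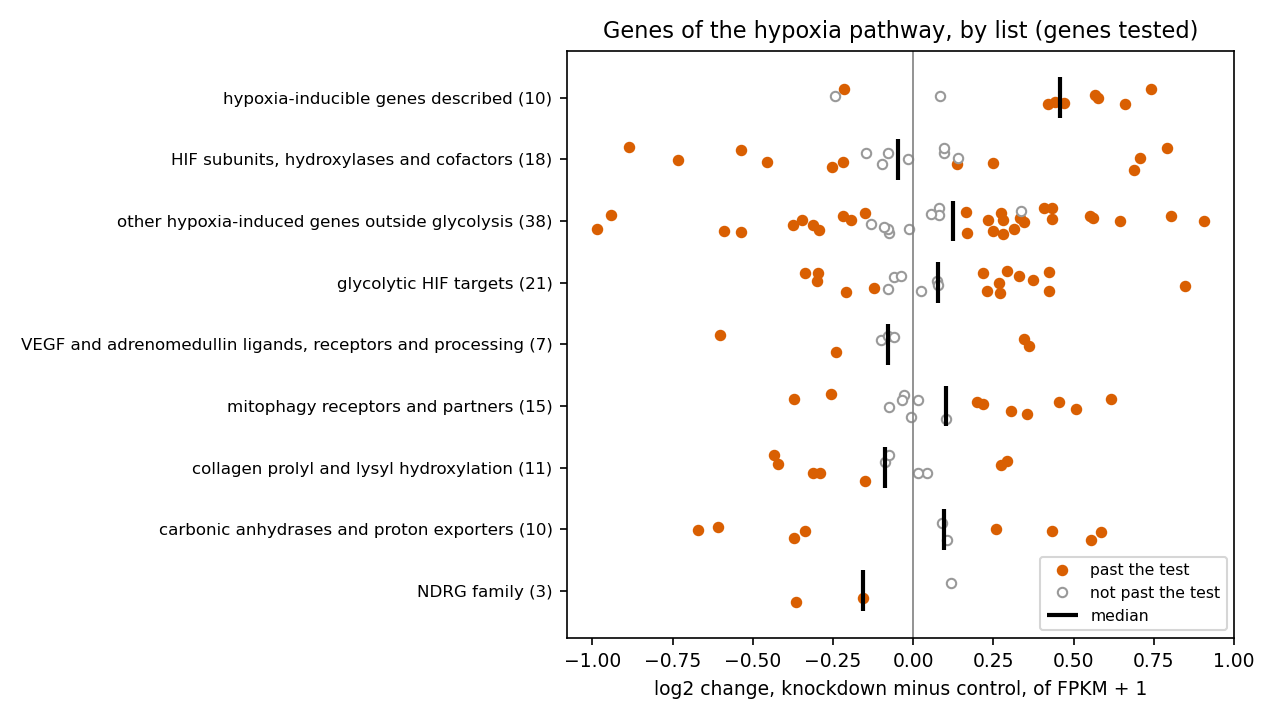
Log2 change, knockdown minus control of FPKM + 1, of every tested gene of each list (number of genes in brackets), with filled points past the test and black bars for list medians. The 10 genes described here have a median of 0.46, and the 8 other lists plotted have medians from -0.16 to 0.12. Both the 10 genes and the lists were chosen with earlier results of these data known. The marker lists are not plotted.

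Across libraries the 10 genes summed to 342 to 345 FPKM in control and 450 to 455 FPKM in knockdown cells. Within control libraries the coefficient of variation ran from 1.16% (EGLN3) to 24.8% (ANKRD37), and within knockdown libraries from 0.578% (NDRG1) to 34.2% (ANKRD37). Knockdown replicate 2, the library that stood apart, was the highest of its group for 3 of the 10 genes and the lowest for 4. Without it 7 genes were still higher and 1 lower. With a common sum 8 of the 10 were higher and 0 lower, against 43.4% and 16.4% of all genes. With the length trend removed 7 were higher and 0 lower, against 28% and 28.7% of all genes. Every one of the 7 rises held with each library left out in turn, with a highest adjusted p of 0.012 (EGLN1).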

How the data were processed

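Total RNA of 6 HaCaT libraries, 3 control and 3 IQGAP2 knockdown, was sequenced. The sample titles gave the groups. FPKM values per gene and library were deposited by the authors after alignment with HISAT2 2.2.1 to GRCh38, per the submitters' processing notes. How reads were counted, on which annotation and with which strand setting is not given in the sources used here. Every gene in the table had a mean of at least 0.1 FPKM. Whole reads were recovered for 12829 genes, since FPKM times relative depth is a whole multiple of one step per gene (tolerance 0.004 reads, up to a divisor common to all 6 libraries).

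The comparison was fitted to log2(FPKM + 1) by limma 3.58.1 under R 4.3.3 with group as the only factor and a mean-variance trend, for the 11214 genes whose mean reached 0.5 FPKM, two-sided, Benjamini-Hochberg adjusted over all of them, threshold 0.05. IQGAP2 was added to the same model. The fitting step was tested on simulated data with few changed genes and no length trend, which differ from these data in both. The labels call libraries biological replicates but name no separate cultures, so p-values measure the spread between these libraries only. Exon lengths and overlaps came from GENCODE v29 and promoter windows from RefSeq. FPKM is relative to the library total, so abundant transcripts that fall push the others up. Alternatives were 15 settings, among them pseudocounts, filters, a common sum, quantile normalization, voom with TMM factors, a replicate block, removal of the length trend and each library left out.

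Named genes were the 10, 6 core HIF genes, IQGAP2, close relatives of the 10 and the most abundant marker of each cell type list. For each other list, the 4 largest changes past the threshold without overlap were added. GABARAPL2, MAP1LC3A, MAP1LC3B2, CDH5, LUM, COL1A1 and UFSP2 were named outside this rule. The members and lists were chosen with earlier results of these data known. Replicate numbers name no pairing in the labels.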

Additional observations from a re-analysis of the deposited data

How the results depend on the processing

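VEGFA, CA12, BNIP3, BNIP3L, EGLN1, NDRG1 and P4HA1 kept their direction and their call in every setting in which they were tested (14 or 15 of 15, since CA12, EGLN1 and ANKRD37 fall below a filter of 5 FPKM). Their log2 changes ranged from 0.34 (NDRG1, length trend removed) to 1.37 (CA12, voom). ANKRD37 passed in none. The number of the 10 that were lower was 0 with a common sum and with the length trend removed, where ADM lost its call. The median change of the 10 was 0.53 with a pseudocount of 0.1, 0.50 with a pseudocount of 0.5, 0.62 with a common sum, 0.51 with quantile normalization and with voom, and 0.41 with the length trend removed, against 0.46, and it was 0.44 to 0.48 with a library left out. Over all genes 4868 were higher and 1835 lower with a common sum, against 3313 and 3121. The IQGAP2 change was -0.23 to -0.22 with a library left out, -0.41 with a pseudocount of 0.5 and -1.26 with 0.1. With the replicate number as a replicate block, 7 of the 10 were higher and 1 lower, their median change was 0.46, and no call among the 10 changed. Same-numbered libraries did not deviate together (correlations of -0.067, -0.038 and 0.019 between deviations from group means). With 3 libraries per group this does not exclude a pairing. ANKRD37, which did not pass, had 14 to 42 reads per library, and CA9, which passed, had 15 to 37. The part of depth in the missing ANKRD37 call was not tested.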
